A study of Saccharomyces cerevisiae with 6 samples.

Results

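The yeast cell wall is a layer of β-1,3-glucan, β-1,6-glucan, chitin and glycosylated proteins outside the plasma membrane. Its upkeep is watched by the cell wall integrity pathway, in which sensors at the plasma membrane act through Pkc1 and a kinase cascade on the MAP kinase Slt2 and the transcription factor Rlm1. The 30 genes described here build the wall or belong to this pathway. They were chosen by name, and all 30 were found among the 6445 genes of the count tables.

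Transcripts were counted in 3 libraries of a Saccharomyces cerevisiae strain that makes β-carotene, whose genotype is labelled CrtI/E/YB, and in 3 libraries of the strain it was derived from, CEN.PK2-1C, labelled WT. The cultures, both in YPD, were shaken at 250 rpm and kept at 30 °C until they were taken at 18 h. The label names only the carotenoid genes, but GAL80, which encodes the repressor of the galactose regulon, was counted 0, 0 and 2 times in the producer, against 6267, 4941 and 4891 times in the parent. As a check of mating type, which the labels do not give, 7 a-specific genes summed to 603 to 683 CPM in the producer (counts scaled by TMM to a total of 1e6) and 615 to 646 CPM in the parent, most of it from STE2 and STE6. The 4 α-specific genes summed to 142 to 148 CPM in the producer and 119 to 132 CPM in the parent, most of it from SAG1. Over all libraries the α-factor gene MF(ALPHA)1 was between 0.866 and 2.96 CPM and MF(ALPHA)2 between 8.33 and 10.8 CPM. The a-factor genes MFA1 and MFA2 were between 9.69 and 13.3 CPM and between 30.7 and 38.2 CPM. These levels alone do not settle the mating type. Nothing says whether replicates were separate cultures or how many clones the producer stands for, so p-values measure the spread between these libraries, which may be technical.

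Each library held 48.4 to 58.3 M estimated counts (1 M is 1e6), of which the 30 wall genes took 1.27% to 1.52% in the producer and 1.24% to 1.43% in the parent. The comparison addresses whether the engineered strain carried its wall genes at other levels than the parent. It rests on edgeR's quasi-likelihood test with Benjamini-Hochberg adjustment over all 6125 genes tested, and a gene passed at an adjusted p under 0.05. Every log2 fold change is producer minus parent, with its SE.

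No wall gene passed. In edgeR 0 of the 30 genes were higher, where 0.8% of all genes were, and 0 were lower, where 0.343% were, or 1.14% in both directions together. limma-voom also called 0 of the 30. DESeq2 called 4, CCW14, CHS1, GAS5 and PST1, or 13.3%, against 14.6% of all genes. At an unadjusted p under 0.05 in edgeR 8 wall genes stood out, 26.7% against 27.3% of all genes, 4 of them higher (13.8% of all genes) and 4 lower (13.5%). These shares lay near the background.

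The intervals bound how large a difference is possible in these counts. The counts come from alignments without duplicate reads, and how such removal changed the differences of abundant genes was not tested. For all 30 genes the 95% interval of the fold change lay within 2-fold either way, as it did for 95.9% of all genes. For 24 of the 30 it lay within 1.5-fold, where 81.8% of all genes did. With the GC-content correction described next, the interval of PST1 ran from -1.04 to -0.21, beyond 2-fold. The median log2 fold change was 0.08 over the wall genes and -0.01 over all genes, and 11 of the 30 were below 0, where 51.5% of all genes were. After a GC-content correction, which removes each library's trend of transcript level on gene GC content, 0 of 30 passed again, where 1.29% of all genes passed and 0.501% were called lower.

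**Figure D1:**
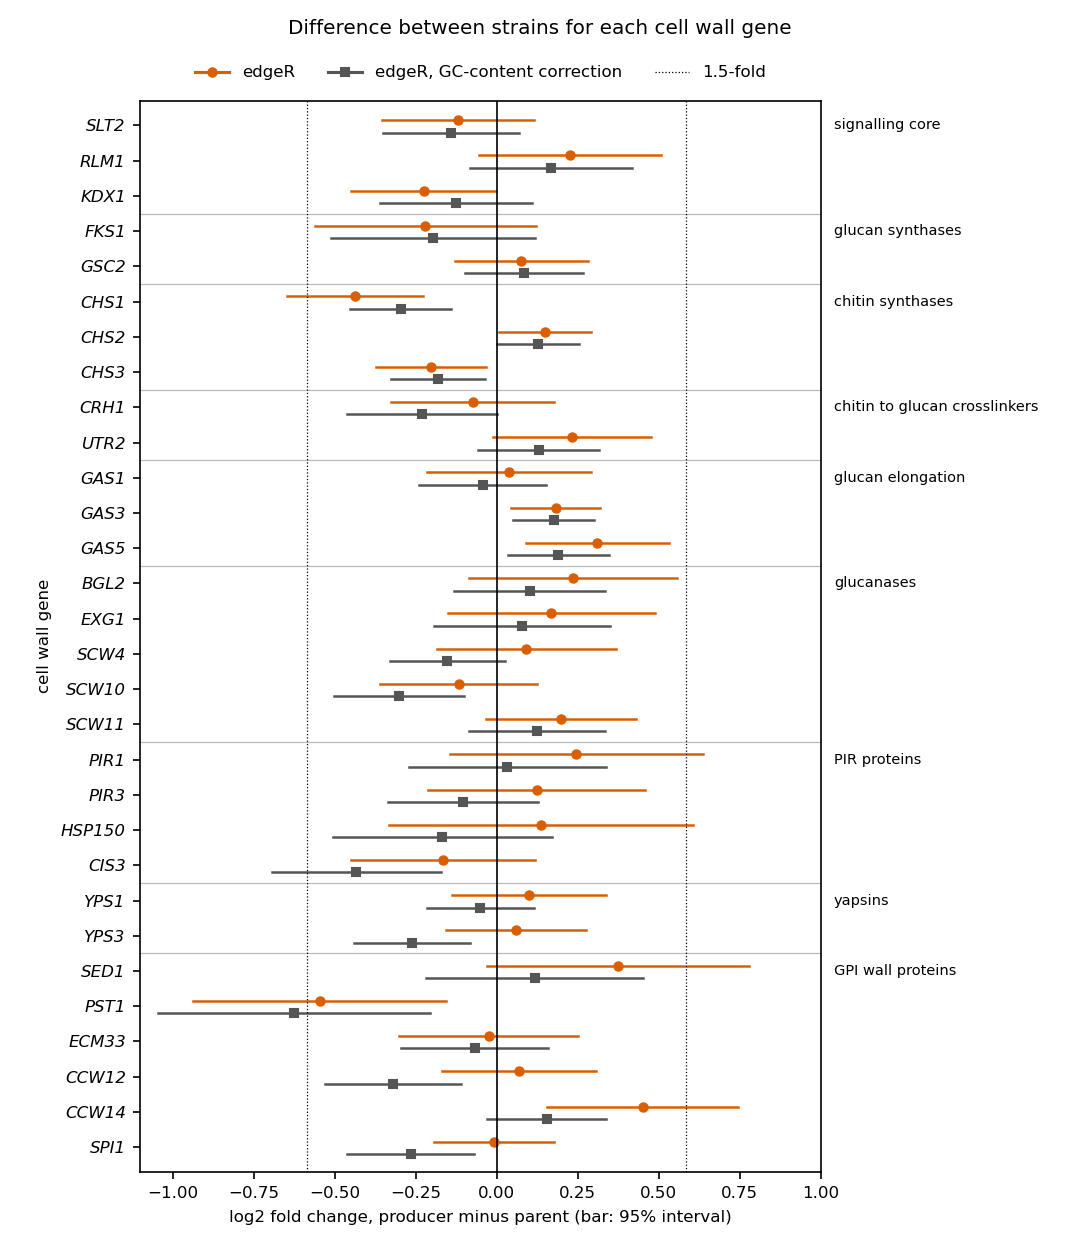
Log2 fold change of the 30 wall genes, producer minus parent, on the horizontal axis, with 95% intervals, from edgeR (circles) and from edgeR with the GC-content correction (squares). Genes are grouped by role and dotted lines mark 1.5-fold. PST1 and CHS1 lie farthest to the left in edgeR at -0.55 and -0.44, and CCW14 farthest to the right at 0.45.

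Upstream matches to the Rlm1 consensus are printed first, because the results return to these genes. Windows from 250 bases before to 50 bases after the start codon (RefSeq assembly R64, the same release as sacCer3) were searched on both strands. The Rlm1 consensus was in 4 of the 30 windows, 13.3%, against 1% of 5984 windows of all genes. A match describes letters and is no evidence of binding. The sites read 5′ to 3′ along the gene, with the consensus in capitals between 10 flanking bases on each side:
GAS5: tttgcttataCTATAAATAGgaaggtccct
BGL2: atatgcagttCTATTTTTAGtaaaagaaac
HSP150: acattttgagCTAAATTTAGattttggtca
CCW14: cggaaaattaCTATTTATAGaagcattgga

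The GAS5 site is chrXV:268054-268083 on the plus strand and the BGL2 site chrVII:1058924-1058953 on the minus strand. The HSP150 site is chrX:120216-120245 and the CCW14 site chrXII:903495-903524, both on the plus strand. Neither of the other motifs reported here overlapped them. The element of the cell cycle factor SBF (CNCGAAA) was in 5 of 30 windows, 16.7%, against 13.8% of all. The stress response element (AGGGG) was in 3 of 30, 10%, against 21.7%.

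Some wall genes share identical stretches, and a read that lies wholly within one fits both genes. PIR1 and PIR3, neighbours on chromosome XI, were 72% identical in coding sequence, and HSP150 and CIS3, neighbours on chromosome X, 42.2% identical. Each pair shares one long stretch without a mismatch, of 81 bases near the start of PIR1 and PIR3 and of 65 bases towards the end of HSP150 and CIS3, printed along the gene in lower case throughout because the counts of these 4 genes may depend on how such reads were shared out:
PIR1 and PIR3: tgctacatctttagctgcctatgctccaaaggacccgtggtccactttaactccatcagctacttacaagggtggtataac
HSP150 and CIS3: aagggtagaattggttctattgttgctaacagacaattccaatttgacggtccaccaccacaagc

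The first stretch is chrXI:142701-142781 on the minus strand in PIR1 and chrXI:144439-144519 on the plus strand in PIR3. The second is chrX:121451-121515 on the plus strand in HSP150 and chrX:122440-122504 on the minus strand in CIS3. FKS1 and GSC2 were 79.3% identical with a longest shared run of 38 bases, and SCW4 and SCW10 66.3% identical with one of 32. No source used here states how such reads were counted, and values within these pairs may carry that uncertainty.

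The signalling core overlapped between strains except for KDX1. SLT2, the MAP kinase of the pathway (R64 chromosome VIII, 168890 to 170344, minus strand), had 248, 215 and 186 CPM in the producer, against 247, 221 and 237 CPM in the parent. Producer replicate 3 was the lowest of the 6, and the log2 fold change was -0.12 ± 0.10 (edgeR adjusted p = 0.459). RLM1, the transcription factor downstream of Slt2, had 218, 251 and 186 CPM in the producer and 195, 160.5 and 205 CPM in the parent, at 0.23 ± 0.12. KDX1, a kinase related to Slt2 and itself a transcriptional target of the pathway, had 47.4, 47.2 and 40.0 CPM in the producer and 52.3, 48.1 and 57.1 CPM in the parent. Every producer value of KDX1 lay below every parental one, though the nearest values were closer than the spread within either strain. Its log2 fold change was -0.23 ± 0.10 (edgeR adjusted p = 0.18), and -0.13 ± 0.10 after the GC-content correction.

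Neither β-1,3-glucan synthase passed. FKS1, the catalytic subunit used in growth on glucose, had 976, 877 and 659 CPM in the producer and 1013, 869 and 1045 CPM in the parent, at -0.22 ± 0.15. The lowest value again belonged to producer replicate 3. GSC2, the subunit known for induction under stress and in sporulation, had 416, 361 and 336 CPM in the producer and 363, 349.9 and 343 CPM in the parent, at 0.08 ± 0.09, a sign that turned without producer replicate 1. Per kilobase of coding length, GSC2 stood at 0.421, 0.408 and 0.505 of the FKS1 level in the producer libraries, against 0.355, 0.399 and 0.325 in the parent. The 3 producer ratios lay above the 3 parental ones, with an exact two-sided permutation p of 0.1, the smallest that 3 against 3 allows, and an adjusted p of 0.3 over 9 ratios taken between wall genes.

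CHS1 had the smallest p of the wall genes. CHS1, the chitin synthase of repair at cell separation (R64 chromosome XIV, 276502 to 279897, plus strand), had 365, 368 and 345 CPM in the producer, against 462, 547 and 452 CPM in the parent. The strains lay well apart, and the producer libraries lay close together. The log2 fold change was -0.44 ± 0.09 (95% interval -0.65 to -0.23), and the edgeR adjusted p of 0.0609 did not reach the threshold. In 3 of 18 alternative settings it did, with an adjusted p of 0.000413 in DESeq2, of 0.0225 in edgeR without parent replicate 1, where 17.5% of all genes then passed, and of 0.0474 without parent replicate 2. After the GC-content correction CHS1 stood at -0.30 ± 0.07 (edgeR adjusted p = 0.0789).

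The other chitin synthases went opposite ways. CHS3, which makes most of the wall's chitin and the ring at the bud neck, had 298, 289 and 263 CPM in the producer and 327, 313 and 339 CPM in the parent, at -0.20 ± 0.08 (edgeR adjusted p = 0.131). CHS2, the synthase of the primary septum, had 227, 209 and 219.6 CPM in the producer and 198, 198 and 195 CPM in the parent, at 0.15 ± 0.06 (edgeR adjusted p = 0.166). The strains did not overlap for either gene. Per kilobase, CHS2 over CHS3 was 0.934 ± 0.0693 in the producer and 0.731 ± 0.0342 in the parent (SD, n = 3 each), again with an exact permutation p of 0.1 and an adjusted p of 0.3 over the 9 ratios. CIS3 over HSP150 had the same exact and adjusted p, at 0.214 ± 0.0107 in the producer and 0.273 ± 0.0626 in the parent. Summed over the 3 synthases the level was 891, 866 and 828 CPM in the producer, below all of 987, 1057 and 986 CPM in the parent. The sum averaged 861 CPM in the producer and 1010 CPM in the parent, and CHS1 alone 359 and 487 CPM. Among all single genes the producer libraries lay below the parental ones without overlap for 17.2%, and above for 16.6%.

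**Figure D2:**
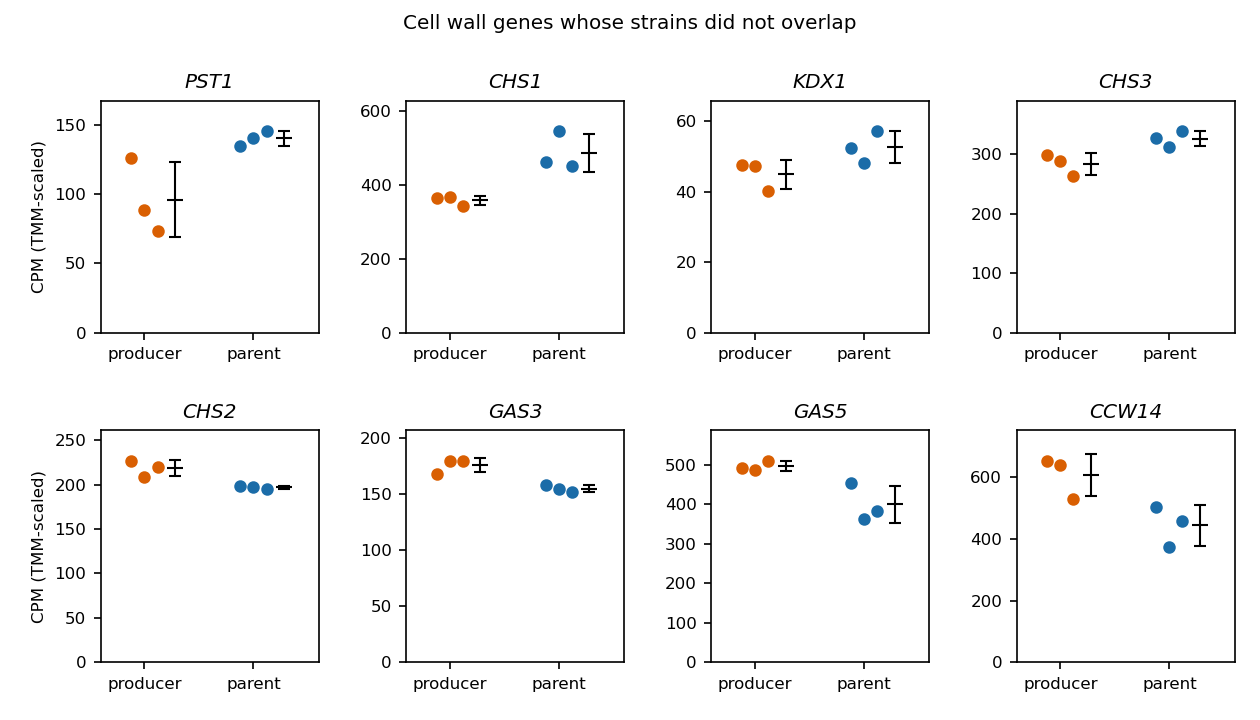
TMM-scaled CPM on the vertical axis for the 8 wall genes whose producer (orange) and parental (blue) libraries do not overlap, each library a point with the mean ± SD beside them. PST1, CHS1, KDX1 and CHS3 are lower in every producer library and CHS2, GAS3, GAS5 and CCW14 higher, and 0 of the 8 passed in edgeR over all genes.

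Libraries of the strains did not overlap for 8 wall genes. The producer was above in 4, 13.3%, where it was above for 16.6% of all genes, and below in 4, 13.3%, where it was below for 17.2% of all genes. Neither share exceeded the background.

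Among the enzymes that lengthen and branch β-1,3-glucan, 0 of 3 passed. GAS5 (R64 chromosome XV, 268187 to 269641, plus strand), an elongase of the wall surface, had 491, 485 and 510.1 CPM in the producer, against 453, 363 and 383 CPM in the parent. The producer libraries were tight and parent replicate 1 lay nearest to them. Its log2 fold change was 0.31 ± 0.10 (edgeR adjusted p = 0.0992), and 0.19 ± 0.07 after the GC-content correction. It passed in DESeq2 with an adjusted p of 0.0209 and in edgeR without parent replicate 1 with 0.0193.

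GAS3, of the same family, had 169, 180.1 and 179 CPM in the producer and 158, 155 and 152 CPM in the parent, without overlap. It stood at 0.18 ± 0.06 (edgeR adjusted p = 0.109), and at 0.18 ± 0.05 after the correction. GAS1, the main elongase of growing cells, averaged 709 ± 72.6 CPM in the producer and 691 ± 61.1 CPM in the parent (SD, n = 3 each), at 0.04 ± 0.11, and its sign was negative in 6 of 18 settings. CRH1 and UTR2, which join chitin to glucan, overlapped between strains. CRH1 was at -0.07 ± 0.11, a sign that turned without producer replicate 3, and UTR2 at 0.23 ± 0.11. After the correction CRH1 was at -0.23 ± 0.10 and UTR2 at 0.13 ± 0.08.

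Of the glucanases and their relatives 0 of 5 passed. BGL2, an abundant endoglucanase that also transfers glucan, had 692, 709.7 and 623 CPM in the producer and 669.8, 452 and 597 CPM in the parent, at 0.24 ± 0.14. Its parental values were the more spread, with replicate 2 far below the others. EXG1, the main exoglucanase, was at 0.17 ± 0.14, and SCW11, a glucanase of cell separation, at 0.20 ± 0.10. SCW4 and SCW10, wall proteins related to glucanases, were at 0.09 ± 0.12 and -0.12 ± 0.11. After the GC-content correction BGL2 was at 0.10 ± 0.10, EXG1 at 0.08 ± 0.12, SCW11 at 0.12 ± 0.09, SCW4 at -0.15 ± 0.08 and SCW10 at -0.30 ± 0.09.

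The PIR proteins, which are held in the wall by alkali-sensitive links to glucan, spread widely between libraries of the same strain. HSP150 had 976, 851 and 622 CPM in the producer, against 900.0, 546 and 782 CPM in the parent. PIR1 had 602, 665 and 490.4 CPM in the producer, against 560.5, 369 and 554 CPM in the parent. In both genes the lowest library of each strain was producer replicate 3 and parent replicate 2, and the strains overlapped. The log2 fold changes were 0.14 ± 0.21 for HSP150 and 0.25 ± 0.17 for PIR1, with 95% intervals reaching 0.61 and 0.64, beyond 1.5-fold. PIR3 was at 0.12 ± 0.15. CIS3 had 109, 104 and 75.1 CPM in the producer and 112, 104 and 107 CPM in the parent, at -0.17 ± 0.13, with producer replicate 3 alone standing low. After the GC-content correction HSP150 and PIR3 turned to -0.17 ± 0.15 and -0.10 ± 0.10, PIR1 moved to 0.03 ± 0.13 and CIS3 to -0.43 ± 0.11.

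Yapsins are aspartyl proteases of the cell surface that process wall proteins. YPS1 had 621, 569 and 601 CPM in the producer and 635, 512 and 524 CPM in the parent, at 0.10 ± 0.11. YPS3, its neighbour on chromosome XII, had 158, 139.9 and 143 CPM in the producer and 159, 139 and 124 CPM in the parent, at 0.06 ± 0.10. Both overlapped between strains, and both were negative after the GC-content correction, at -0.05 ± 0.07 and -0.26 ± 0.08.

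Another yapsin gene, outside the 30, MKC7 (R64 chromosome IV, 744311 to 746101, minus strand), was the one gene of the further wall lists to pass. MKC7 had 99.1, 105 and 108 CPM in the producer and 82.8, 72.1 and 72.5 CPM in the parent, with a clear gap. It rose by 0.46 ± 0.08 on the log2 scale (edgeR adjusted p = 0.0361), and by 0.41 ± 0.07 after the GC-content correction (0.025). In the corrected fit with each library left out in turn, it passed only without parent replicate 1 (0.0268). Without each other library the edgeR adjusted p was 0.056 to 0.14. It passed in 11 of 18 settings, and not without producer replicate 1 (0.0887), 2 (0.146) or 3 (0.116) or parent replicate 3 (0.183), with library totals (0.0512), with the covariate of library total (0.663) or with the GC-content correction and a replicate block together (0.155).

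Wall proteins that come through a GPI anchor included the most abundant transcripts of the set. SED1, a structural mannoprotein prominent in resting cells, had 3518, 3818 and 2807 CPM in the producer and 2678, 2038 and 3112 CPM in the parent. The strains overlapped through parent replicate 3, at 0.37 ± 0.18 (edgeR adjusted p = 0.21), and at 0.12 ± 0.15 after the GC-content correction. Per kilobase its level was 3325 ± 511 CPM in the producer and 2565 ± 531 CPM in the parent (SD, n = 3 each). Over the 6 libraries it ranked 1 of 5988 genes by this level. Such ranks rest on counts without duplicate reads, and removal of duplicates can lower abundant transcripts.

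CCW12, a mannoprotein of growing walls, and SPI1, a wall protein induced by weak acids and in stationary phase, ranked 34 and 57 by level per kilobase. CCW12 stood at 1405 ± 155 CPM per kilobase in the producer and 1339.9 ± 83.3 in the parent, and SPI1 at 1069.9 ± 64.7 in the producer and 1076 ± 27.7 in the parent (SD, n = 3 each). Both differences were smaller than the spread between libraries, at log2 fold changes of 0.07 ± 0.11 and -0.01 ± 0.08. At the other end, KDX1 ranked 4683 with 34.5 ± 3.21 CPM per kilobase in the producer and 40.3 ± 3.46 in the parent.

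CCW14, a GPI protein of the inner wall (R64 chromosome XII, 903724 to 904440, plus strand), had the largest positive difference of the 30. It had 652, 637 and 529 CPM in the producer, against 502, 372 and 457 CPM in the parent. The strains did not overlap, but producer replicate 3 and parent replicate 1 were closer than the spread within either strain. The log2 fold change was 0.45 ± 0.13 (95% interval 0.16 to 0.74, edgeR adjusted p = 0.09), and 0.15 ± 0.08 after the GC-content correction, in a gene of 48.3% GC. It passed in DESeq2 with an adjusted p of 0.00996 and in edgeR without parent replicate 1 with 0.0315.

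PST1, a GPI protein whose transcript is a well known marker of integrity signalling (R64 chromosome IV, 563527 to 564861, plus strand), had the largest negative difference. It had 126, 88.6 and 73.3 CPM in the producer, against 135, 140.3 and 145 CPM in the parent. The parental libraries were tight and the producer ones spread widely, with replicate 1 close to the parent. The log2 fold change was -0.55 ± 0.17 (95% interval -0.94 to -0.16, edgeR adjusted p = 0.103), and -0.62 ± 0.18 after the GC-content correction. Without producer replicate 1 it was -0.79 ± 0.10 with an edgeR adjusted p of 0.0152, and DESeq2 on all 6 libraries gave 0.0177. ECM33, a relative of PST1 needed for a normal wall, averaged 627 ± 70.1 CPM in the producer and 638 ± 76.2 CPM in the parent (SD, n = 3 each), and its sign turned without producer replicate 3, parent replicate 1 or parent replicate 3.

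The genes tied to the integrity pathway shared no direction. PST1 and KDX1 had lower values in every producer library. Of the 4 genes with an Rlm1 consensus upstream, GAS5 and CCW14 had higher values in every producer library and HSP150 and BGL2 overlapped. Of 5 other genes known as Rlm1 targets 0 passed in edgeR. At an unadjusted p under 0.05 there were 2 of 5, against 27.3% of all genes, and DESeq2 called 1 of 5, against 14.6%. BAG7 was at -0.35 ± 0.09 (edgeR adjusted p = 0.0724), CWP1, a mannoprotein, at 0.26 ± 0.10 and PRM5, a membrane protein, at 0.42 ± 0.19, and after the GC-content correction CWP1 was at 0.02 ± 0.08. The median of the list was 0.05, against -0.01 for all genes.

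Among the 24 genes of the integrity pathway outside the signalling core, 0 passed in edgeR, and 12 of 24 had an unadjusted p under 0.05, against 27.3% of all genes. Of these, 4 were positive, against 13.8% of all genes, and 8 negative, against 13.5%. After the GC-content correction 5 of 24 had one, against 19.5%. DESeq2 called 6 of 24, 2 higher and 4 lower, against 14.6%. ZEO1, a partner of the sensor Mid2, had 229, 239.6 and 230.0 CPM in the producer and 276, 300.1 and 289 CPM in the parent. Its log2 fold change was -0.31 ± 0.07 (edgeR adjusted p = 0.0609), and after the GC-content correction it passed, at -0.38 ± 0.07 and an adjusted p of 0.0345. ZEO1 passed in 3 of 18 settings, not with the correction and a replicate block together (0.138), and in the corrected fit only without parent replicate 1 (0.0244) among the libraries left out in turn (0.0582 to 0.159 without each other library). The sensor genes MTL1 and WSC2 lay the other way, at 0.30 ± 0.07 and 0.43 ± 0.11 with edgeR adjusted p of 0.0698 and 0.0717, and at 0.21 ± 0.06 and 0.20 ± 0.08 after the GC-content correction. Over these 24 genes the median was -0.01, as for all genes. BAG7 belongs both to this list and to that of the other Rlm1 targets, and is counted in each.

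Of 9 genes that make β-1,6-glucan 0 passed in edgeR. At an unadjusted p under 0.05 there were 4 of 9, against 27.3% of all genes, and DESeq2 called 2 of 9, against 14.6%. KRE1, a GPI protein of β-1,6-glucan assembly, had 355, 354 and 336 CPM in the producer and 276, 209 and 253 CPM in the parent. It was at 0.50 ± 0.10 (edgeR adjusted p = 0.0572) and passed in 6 of 18 settings, but stood at 0.21 ± 0.06 after the GC-content correction. KRE9 was at 0.26 ± 0.08 and KRE5 at -0.28 ± 0.09, moving to 0.12 ± 0.05 and -0.11 ± 0.09 after the correction, and the list median was 0.06.

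Of 9 genes that supply chitin precursors or deliver chitin synthase 0 passed in edgeR. At an unadjusted p under 0.05 there were 4 of 9, against 27.3% of all genes, and DESeq2 called 1 of 9, against 14.6%. CHS6 and SKT5, which serve the export and activity of Chs3, were at -0.26 ± 0.08 and -0.20 ± 0.08, and GNA1, of precursor synthesis, at 0.25 ± 0.10, or 0.15 ± 0.08 once corrected for GC content. Over the list the median was -0.01. Of 9 relatives of the wall genes 1 passed, MKC7, where 0.8% of all genes were called higher, while GAS2, an elongase of the spore wall, was at 0.29 ± 0.08 and EXG2, an exoglucanase, at 0.16 ± 0.06.

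Wall gene values also moved by library. Producer replicate 3 was the lowest of the 6 libraries for 12 of the 30 wall genes, 40%, against 18.7% of all genes. Parent replicate 2 was the lowest for 14, 46.7%, against 29.8%, and producer replicate 1 and parent replicate 1 for 0. Summed over the 30 genes the level was 15564, 15446 and 12731 CPM in the producer and 14325, 11740 and 14183 CPM in the parent, with overlap. After the GC-content correction producer replicate 3 was the lowest for 18 of 30, 60%, against 19%, and parent replicate 2 for 6, 20%, against 25.6%.

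**Figure D3:**
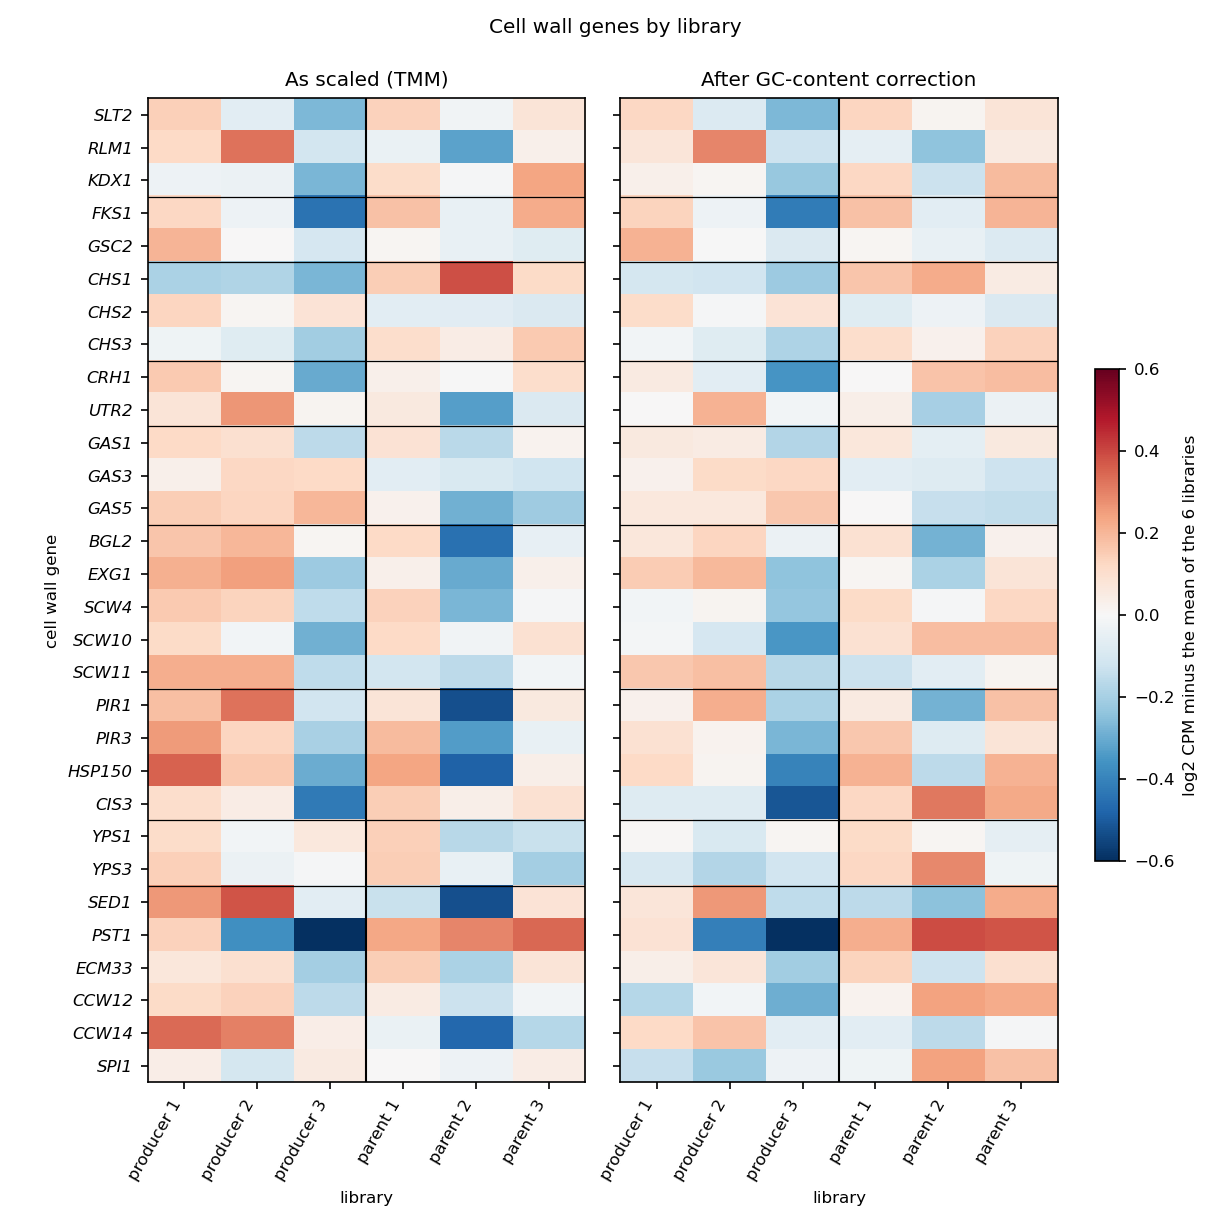
Level of each wall gene (rows, grouped by role) in each library (columns, producer on the left), as log2 CPM minus the mean of the 6 libraries, before (left panel) and after (right panel) the GC-content correction. Producer replicate 3 is the lowest library for 12 of 30 genes in the left panel and for 18 of 30 in the right panel, and parent replicate 2 for 14 and for 6.

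GC content followed the libraries too. Across 5988 genes, which share the libraries and are not replicates, the Spearman correlation of a library's level relative to the mean of the 6 with gene GC content was 0.609, 0.475 and 0.338 for producer replicates 1, 2 and 3. It was 0.218, -0.649 and -0.479 for parent replicates 1, 2 and 3. Every producer value lay above every parental one. A GC trend of the libraries and a difference between the strains therefore cannot be told apart here, and the correction may take out part of either. Wall genes had a median GC content of 42.5%, against 39.7% for all genes tested. Parent replicate 2, with the most negative trend, was the lowest library for the GC-rich genes HSP150, SED1, CCW14, SCW4, PIR3 and PIR1. It was not the lowest for some other GC-rich wall genes. The lowest was producer replicate 3 for CCW12 and CIS3, parent replicate 3 for YPS3 and producer replicate 2 for SPI1.

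**Figure D4:**
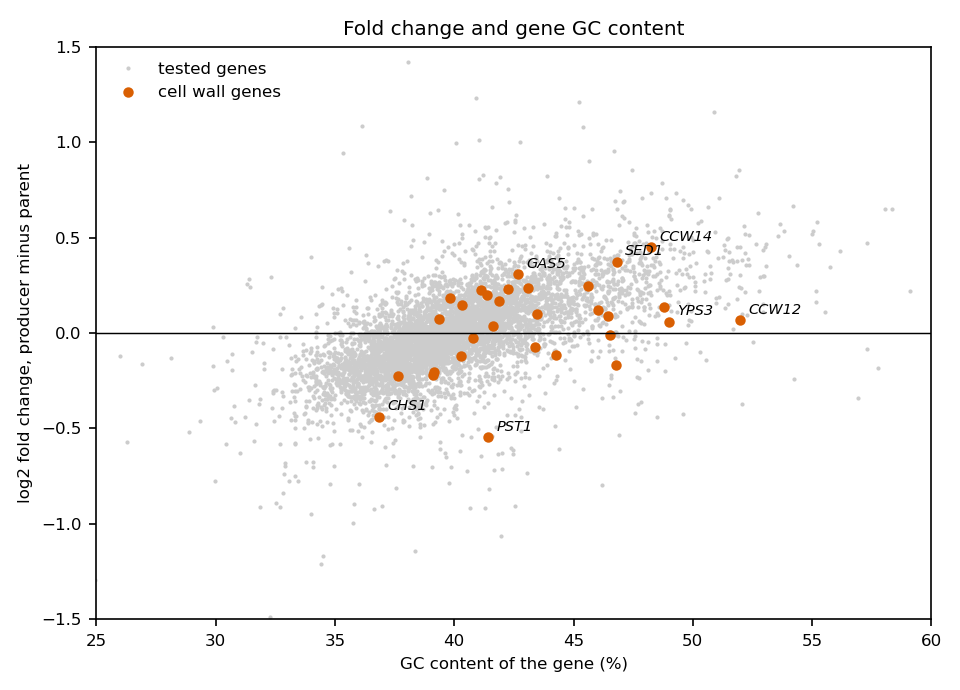
Log2 fold change, producer minus parent, on the vertical axis against gene GC content in percent on the horizontal axis, for the genes tested (grey) and the 30 wall genes (orange), with 22 grey genes outside the axes. Across all genes the Spearman correlation is 0.649, and the GC-rich wall genes CCW12 and YPS3 lie slightly above 0.

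With the GC-content correction the balance of the wall genes turned. Their median log2 fold change was -0.09, against -0.00244 over all genes, and 18 of 30 were below 0, where 50.8% of all genes were. At an unadjusted p under 0.05 there were 11 of 30, 36.7%, against 19.5% of all genes. Of these, 9 were lower, 30%, against 10.4%, namely CHS1, CHS3, CRH1, SCW10, CIS3, YPS3, PST1, CCW12 and SPI1. The other 2 were higher, GAS3 and GAS5, where 9.1% of all genes were. None of the 11 passed, with edgeR adjusted p from 0.0789 for CHS1 to 0.256 for CRH1. The values farthest below 0 after PST1 were CIS3, given above, and CCW12 at -0.32 ± 0.09, and SPI1 stood at -0.27 ± 0.09.

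Each library in turn was left out of the corrected fit, a check added after the data were seen, which gave 7 to 10 lower wall genes, 23.3% to 33.3%, against 6.69% to 11.5% of all genes. Without producer replicate 3 it was 7, 23.3% against 8.95%. With the library total as a covariate in place of the correction, 1 wall gene was lower at an unadjusted p under 0.05, 3.33% against 2.29% of all genes, and the median was -0.06.

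Genes of slow growth and stress, 8 in number, included 2 that fell in edgeR, where 0.343% of all genes did. DESeq2 called 3 of 8 lower, where it called 6.55% of all genes lower. HSP26, a small heat shock protein, had 117, 104 and 117 CPM in the producer and 171, 149.5 and 203 CPM in the parent, and fell by 0.63 on the log2 scale (SE 0.11, edgeR adjusted p = 0.0361). SPG4, a gene of survival in stationary phase, had 73.4, 66.0 and 63.6 CPM in the producer and 94.5, 86.9 and 92.3 CPM in the parent, and fell by 0.43 (SE 0.08, edgeR adjusted p = 0.0415). Both passed in 13 of 18 settings, and neither passed without parent replicate 3 (0.153 for HSP26 and 0.183 for SPG4) or without any one producer library (0.0817 to 0.166 over both genes). With the covariate of library total the adjusted p was 0.663 for HSP26 and 0.433 for SPG4. With the GC-content correction and each library left out in turn, SPG4 passed each time (edgeR adjusted p 0.00658 to 0.0377). HSP26 then did not pass without producer replicate 2 (0.0585) and otherwise did (0.00454 to 0.0472). The list median was -0.15, and -0.36 after the GC-content correction. Before correction SPG1 had the largest fall of the list, at -0.74 ± 0.22 (edgeR adjusted p = 0.0922), and overlapped between strains. Its values were 6.82, 7.58 and 9.51 CPM in the producer and 9.42, 17.1 and 13.3 CPM in the parent. HSP12 and DDR2, of 48.2% and 47.8% GC, were above 0, at 0.10 ± 0.10 and 0.05 ± 0.11. Corrected for GC content, they stood at -0.20 ± 0.08 and -0.23 ± 0.06. With that correction all 8 genes were below 0. Of these, 6 were lower at an unadjusted p under 0.05, against 10.4% of all genes. In all 3 passed, where 0.501% of all genes were called lower. The one that passed in addition was GRE1, a stress-induced gene named here after its values were seen, at -0.49 ± 0.08 and an edgeR adjusted p of 0.0222. Uncorrected, GRE1 overlapped between strains at -0.20 ± 0.11 (edgeR adjusted p = 0.265), and it passed in 1 of 18 settings. It did not pass with the correction and a replicate block together (0.0506). In the corrected fit it did not pass without producer replicate 1 (0.082), producer replicate 2 (0.0699) or parent replicate 3 (0.124). The summed level of the 8 genes was 3730, 3397 and 4202 CPM in the producer and 4136, 3898 and 3991 CPM in the parent, and the part of growth state in the wall gene values was not tested.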

How the data were processed

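Per the labels' protocols, RNA was purified from pelleted cells and sequenced as mRNA libraries. The authors deposited 1 table per library with an estimated count for each gene, all of them whole numbers. Per the file headers, StringTie produced these values from alignments without duplicate reads, and such removal can lower abundant transcripts. FastQC, HISAT2, SAMtools, Picard, DESeq2 and the build sacCer3 are named in the submitters' processing notes. No source used here gives versions, the annotation or the use of strand, but no wall gene overlaps another annotated gene.

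Of 6445 gene names, 6129 matched RefSeq R64, the source of coding length, GC content and sequence. The test was edgeR 4.0.16 in R 4.3.3 (filterByExpr, TMM, robust quasi-likelihood, group only), with SE taken as the fold change over the square root of F. Changes were simulated for this comparison on 6121 genes, in genes of at least 10 CPM. They were recovered in 18 of 50 cases at 1.25-fold, in 45 of 50 at 1.5-fold and in 50 of 50 at 2-fold, beside 10 false calls. The simulated counts had the spread usual for a gene's level and no GC trend of the libraries. Recovery in the real libraries may therefore be lower. The GC-content correction, an offset from a loess trend (span 0.5, genes of at least 5 CPM), covered 97.8% of genes tested. Other settings were RLE, upper-quartile and total scaling, no filter, a minimum of 10 CPM in 3 libraries, TMM leaving out the 50 most abundant genes, a replicate block with and without the correction, each library left out, DESeq2 1.42.0, limma-voom 3.58.1 and library total as a covariate.

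All 30 members are named, and of each further list the genes that passed and up to 3 with the smallest p. Members, lists and settings were chosen with earlier results of these data known. Depth of 48.4 to 58.3 M counts leaves counting error small beside the spread between libraries. Libraries of one strain differed by more than sampling noise (chi-square per degree of freedom 25 to 171) and were kept as separate samples.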

Additional observations from a re-analysis of the deposited data

How the results depend on the processing

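Over all genes edgeR called 70, against 842 in DESeq2, 26 with the GC-content correction and the replicate block, 10 with the library total as a covariate, and 15 to 1077 with each library left out, the highest without parent replicate 1, or 25 to 153 when this was done with the correction. The count of wall genes called was 0, against 4 in DESeq2, 0 to 3 with each library left out and 0 to 1 when the correction was applied too. The libraries whose removal brought calls were producer replicate 1 (PST1), parent replicate 1 (CHS1, GAS5 and CCW14) and parent replicate 2 (CHS1). The median of the 30 log2 fold changes was 0.083, and -0.087 with the correction, -0.089 with the correction and the block, -0.063 with the covariate, and -0.16 to 0.16 with each library left out, with and without the correction.

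Of 540 single-gene values in the planned settings, 494 kept direction and side of the threshold, 9 came to pass and 37, from 11 genes, turned sign. None of the genes that turned had passed. With the correction, then with the correction and the block, then with the covariate, GAS1 was at -0.043, -0.046 and -0.066, SCW4 at -0.15, -0.16 and -0.082, PIR3 at -0.10, -0.11 and -0.10, HSP150 at -0.17, -0.17 and -0.12, YPS1 at -0.050, -0.050 and -0.069, YPS3 at -0.26, -0.26 and -0.098, and CCW12 at -0.32, -0.32 and -0.019. GAS1 was at -0.011 with library totals and SPI1 at 0.010 with the covariate.

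With each library left out, with and without the correction, values ran from -0.015 to 0.15 for GSC2, -0.32 to 0.044 for CRH1, -0.084 to 0.12 for GAS1, -0.0031 to 0.36 for BGL2, -0.0027 to 0.30 for EXG1, -0.20 to 0.19 for SCW4, -0.088 to 0.36 for PIR1, -0.18 to 0.26 for PIR3, -0.28 to 0.30 for HSP150, -0.088 to 0.21 for YPS1, -0.34 to 0.16 for YPS3, -0.14 to 0.064 for ECM33, -0.40 to 0.16 for CCW12 and -0.34 to 0.041 for SPI1. The causes were not tested.

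Replicate numbers showed no steady pairing of the samples: the correlation of deviations was 0.238, -0.231 and -0.459 for numbers 1, 2 and 3, and not every sample correlated best with its own number. With 3 libraries a strain the deviations depend on one another, so these values cannot show that no batch was shared. With the replicate block 104 genes and 0 wall genes were called. At 3 libraries a strain, the 95% intervals of 6 wall genes (CHS1, PIR1, HSP150, SED1, PST1 and CCW14) reached beyond 1.5-fold.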

Other observations

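Genes of cell separation, which open the wall between mother and daughter, had 0 of 9 members past the test in edgeR, with 5 positive and 4 negative and a median log2 fold change of 0.05. At an unadjusted p under 0.05 there were 3 of 9, against 27.3% of all genes, and DESeq2 called 3 of 9, against 14.6%. SUN4, a wall protein of septation, had 127, 132 and 122 CPM in the producer and 115, 93.8 and 93.2 CPM in the parent, at 0.34 ± 0.09 (SE, edgeR adjusted p 0.0781), and at 0.08 ± 0.06 after the GC-content correction. ASH1, a daughter-cell repressor, was at -0.31 ± 0.09 and -0.33 ± 0.09 after the correction. DSE1, a daughter-specific gene, had 85.8, 84.6 and 106 CPM in the producer and 109, 189.9 and 114 CPM in the parent, where parent replicate 2, the highest library for 31.8% of all genes, stood far above the others. It was at -0.58 ± 0.21, and at -0.36 ± 0.15 after the correction.

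Of 11 cell cycle genes 0 passed in edgeR and 0 in DESeq2, with 1 at an unadjusted p under 0.05, a median of -0.11 and 8 of 11 below 0. CLN1, a G1 cyclin, was at -0.29 ± 0.10 (edgeR adjusted p 0.116), CLB6 at -0.38 ± 0.17 and SIC1, a cyclin-dependent kinase inhibitor, at 0.14 ± 0.07. After the correction CLB6 was at -0.13 ± 0.14 and SIC1 at -0.01 ± 0.09. The a-specific, α-specific and sporulation lists had 0 of 7, 0 of 4 and 0 of 5 genes past the test in edgeR. At an unadjusted p under 0.05 they had 2, 1 and 0 genes, against 27.3% of all genes. In DESeq2 they had 2, 1 and 0 calls, against 14.6%. MFA1, MFA2 and SAG1 were at 0.34 ± 0.11, 0.23 ± 0.08 and 0.24 ± 0.07. After the correction they were at 0.13 ± 0.11, 0.02 ± 0.08 and 0.24 ± 0.06.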
